A study of Mus musculus with 6 samples.

Results

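Messenger RNA of 10 chaperone genes was followed in cells taken from subcutaneous CT26 tumours, which grow from a mouse colorectal carcinoma line: the heat shock factor Hsf1, the cytosolic HSP90 genes Hsp90aa1 and Hsp90ab1, the HSP90 partners Stip1, St13 and Ahsa1, the mitochondrial chaperonin genes Hspd1 and Hspe1, the small heat shock gene Hspb1 and the co-chaperone gene Bag3. The genes were taken by name, as the rows of the count table that carry these symbols. The list was drawn up with earlier results of these data known. All 10 were found among 17191 genes, and all 10 were among the 12721 genes that passed a filter on low counts. Host mice were female BALB/c animals aged 6 to 8 weeks. Their tumours measured 100 to 200 mm3 at the start of treatment, and the animals then received vehicle (3 libraries) or TP-18, a compound known here by its code name, orally at 50 mg/kg once a day for 3 weeks (3 libraries). The sources disagree on which cells were profiled: macrophages sorted as CD11b+F4/80+CD206+ in the design text, cells selected with CD11b beads in the treatment protocol, and CT26 in the sample fields. The labels do not say whether each library came from its own mouse, so the tests measure the spread between these libraries, which may be partly technical. With bulk RNA, fewer cells of a type and less RNA per cell cannot be told apart.

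HSF1 is the main transcription factor of the heat shock response. In resting cells it is held inactive by chaperones. When unfolded proteins accumulate, it forms trimers, binds heat shock elements in promoters and induces chaperone genes, largely through activation of HSF1 protein already present. HSP90 proteins mature kinases, steroid receptors and other client proteins with a set of co-chaperones, while HSP60 and HSP10 fold proteins imported into the mitochondrial matrix. In macrophages, clients of HSP90 include kinases of inflammatory signalling.

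Heat shock elements were looked up in the promoters because several of these genes are known targets of HSF1. RefSeq promoter windows on GRCm38.p6, from 250 bases before to 50 bases after a start site, were found for 6 of the 10 genes (Ahsa1, Bag3, Hspb1, Hspd1, Hspe1 and Stip1). Hsf1, Hsp90aa1, Hsp90ab1 and St13 had no entry. The motif searched was GAANNTTC or TTCNNGAA, which are each their own reverse complement, so both strands were covered, and matches could overlap. Of all 32851 windows 4946 (15.1%) held a match, and of the 7 windows of these 6 genes 4 did. The matching windows of Hspd1 and Hspe1 share the same stretch of genome, so they are not independent. The windows of Hspe1, Hspb1 and Bag3 are printed because these genes had some of the largest differences given below. Matches are in capitals.
Hspe1: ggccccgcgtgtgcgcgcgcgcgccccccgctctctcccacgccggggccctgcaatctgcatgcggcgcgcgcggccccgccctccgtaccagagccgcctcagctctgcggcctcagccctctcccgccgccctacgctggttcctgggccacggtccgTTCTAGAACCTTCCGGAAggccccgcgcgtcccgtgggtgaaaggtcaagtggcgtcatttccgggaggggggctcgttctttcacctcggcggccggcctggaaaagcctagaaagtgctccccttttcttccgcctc
Hspb1: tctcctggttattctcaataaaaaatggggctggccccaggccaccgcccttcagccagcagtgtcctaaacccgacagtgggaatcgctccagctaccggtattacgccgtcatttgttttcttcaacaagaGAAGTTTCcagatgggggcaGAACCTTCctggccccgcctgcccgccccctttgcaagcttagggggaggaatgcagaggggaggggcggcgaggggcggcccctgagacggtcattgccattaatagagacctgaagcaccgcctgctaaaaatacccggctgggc
Bag3: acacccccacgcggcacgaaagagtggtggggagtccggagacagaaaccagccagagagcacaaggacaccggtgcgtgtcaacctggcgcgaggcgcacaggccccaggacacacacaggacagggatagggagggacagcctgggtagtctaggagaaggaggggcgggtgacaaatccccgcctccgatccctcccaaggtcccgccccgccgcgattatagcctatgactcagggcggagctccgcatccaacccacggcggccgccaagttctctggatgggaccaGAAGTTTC
The Hspe1 window is chr1:55087898-55088197 on the plus strand. Its 18 capitals are 3 overlapping matches, so that GAA and TTC alternate through the run, and they lie from -89 to -72 with the start site counted as 0. A run of at least 3 alternating units was present in 198 of all windows (0.603%). The Hspe1 run is longer than this minimum, with TTC, GAA, TTC and GAA in turn. Hspd1 is read from the opposite strand of the same stretch, and its window on the minus strand, chr1:55087883-55088182, holds the same genomic run, chr1:55088059-55088076, as its reverse complement.
Hspd1 run: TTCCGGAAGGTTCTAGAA
In this Hspd1 window the run lies from -144 to -127. The second Hspd1 window, chr1:55088194-55088493, which starts farther upstream, held no match. Its start site is the start of Hspd1 in GENCODE, and the run lies downstream of that site. The Hspb1 window, chr5:135887669-135887968 on the plus strand, has separate matches from -117 to -110 and from -97 to -90. In the Bag3 window, chr7:128523333-128523632 on the plus strand, the match lies after the start site, from 42 to 49. No match was found in the windows of Stip1 and Ahsa1. A match describes letters only, and binding was not measured.

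Across the 10 genes, all log2 fold changes of TP-18 over vehicle were negative with TMM scaling (47.4% of all tested genes were), while 9 were negative with library totals as scaling (28.2% of all genes), under which Hsf1 was positive. None of the 10 passed edgeR's quasi-likelihood test after adjustment over all genes, where 0.11% of all tested genes did, 0.0865% as lower and 0.0236% as higher. At an unadjusted edgeR p under 0.05, 6 were lower and 0 higher, against 8.7% and 7.56% of all genes. DESeq2 called 4 lower and 0 higher, against 2.98% and 1.47% of all genes, and its unadjusted p was under 0.05 for 6 that were lower (9.57% of all genes). In 8 of the 10 every TP-18 library lay below every vehicle library in TMM-scaled CPM, against 11.7% of all genes, and in 0 above them (11.6%). With library totals, as in the deposited FPKM, this held for 4, against 4.76% of all genes, and 0 lay above (23.5%): Hsp90aa1, Hspe1, Hspb1 and Bag3. The same 4 genes were the 4 that DESeq2 called. The median log2 fold change of the 10 was -0.42 with TMM and -0.24 with library totals, where the medians of all tested genes were 0.02 and 0.20, so that the difference from all genes was -0.44 under both. Because the list was chosen with earlier results of these data known, the shares over all genes describe it and do not test it.

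**Figure D1:**
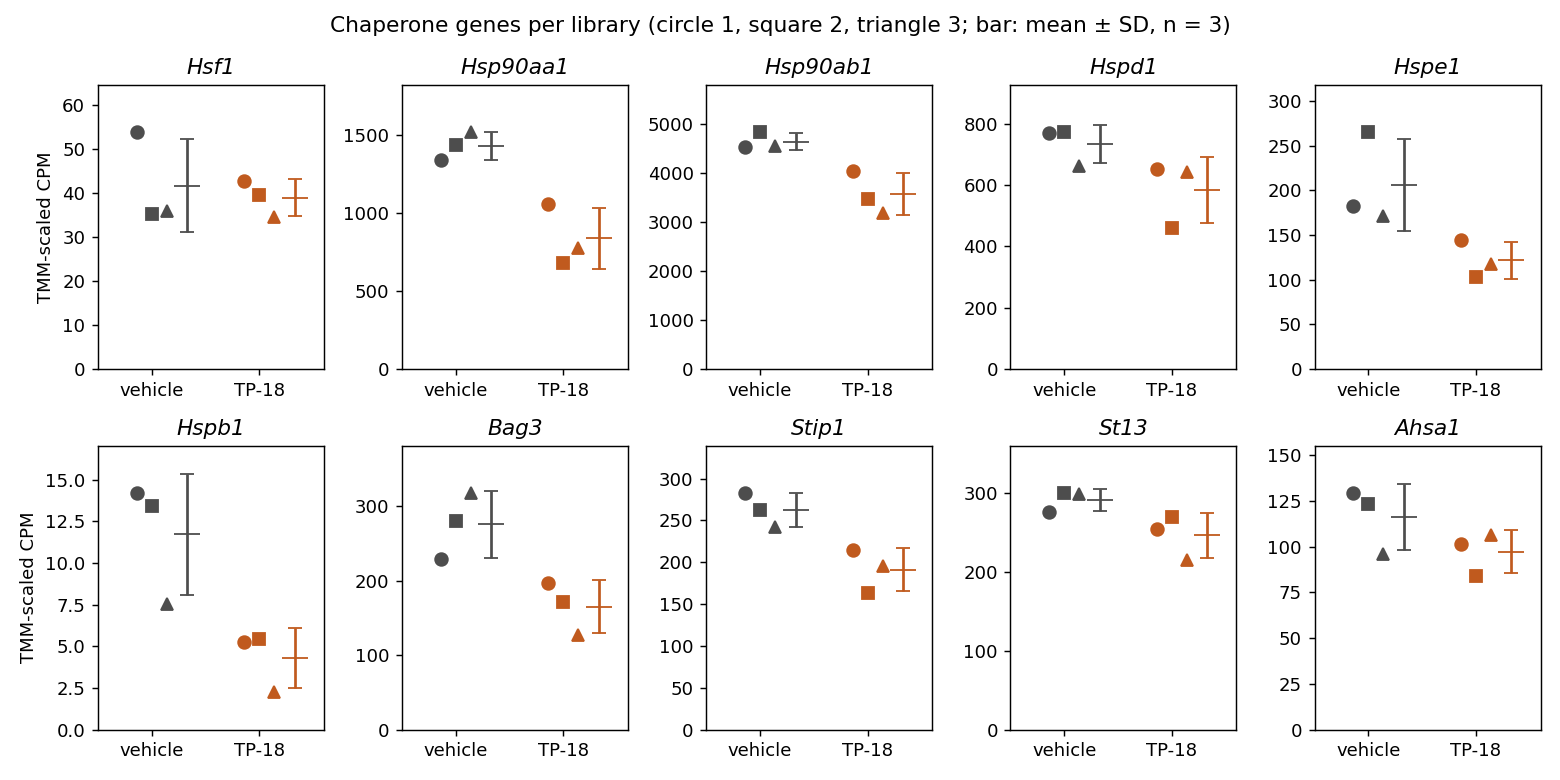
TMM-scaled CPM (vertical axes, each from 0) of the 10 chaperone genes in the 3 vehicle and 3 TP-18 libraries, with the mean and SD beside the points. In Hsf1 and Ahsa1 the groups overlap, and in the other 8 genes all TP-18 points lie below all vehicle points.

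Total counts were 16371128 to 17597645 per library, and the 10 genes took 0.729 to 0.777% of the counts in vehicle and 0.577 to 0.706% in TP-18 libraries. TMM factors ran from 0.924 to 0.962 in vehicle and from 1.05 to 1.07 in TP-18 libraries, so a change from TMM to library totals raised all log2 fold changes by about 0.18. Over all tested genes, the correlation of vehicle 1 was 0.980 to TP-18 1 and 0.982 to TP-18 3, above its 0.964 to vehicle 2 and 0.970 to vehicle 3. Its correlation to TP-18 2 was 0.963, below both. Without vehicle 1, 0 of the 10 chaperone genes passed edgeR and 6 had an unadjusted p under 0.05, as with all libraries. Groups did not overlap in 8, but this is no check, since leaving a library out cannot make separate groups overlap at the same scaling.

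Hsf1 (Entrez 15499), on GRCm38 at 76477422 to 76501913 of chromosome 15, encodes the regulator itself. All 10 genes are annotated as protein-coding. It was at 53.7, 35.2 and 35.9 CPM in vehicle 1, 2 and 3, against 42.8, 39.5 and 34.5 CPM in TP-18 1, 2 and 3. All 3 TP-18 values were within or just below the vehicle range, and vehicle 1 was the highest of the 6. The log2 fold change was -0.10 ± 0.20 (SE, edgeR adjusted p = 0.832). It was 0.07 with library totals and 0.10 without vehicle 1, and without vehicle 2, vehicle 3, TP-18 1 or TP-18 3 it was -0.22, -0.21, -0.17 or -0.02, so no direction of Hsf1 mRNA was resolved.

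The HSP90 genes were the most abundant of the 10. Hsp90aa1 (Entrez 15519, chromosome 12, 110690605 to 110702728) encodes HSP90 alpha, the stress-inducible cytosolic form. It stood at 1339, 1433 and 1516 CPM in vehicle 1, 2 and 3, against 1058, 681 and 776 CPM in TP-18 1, 2 and 3. The groups did not overlap, and TP-18 1 was the closest to vehicle. The log2 fold change was -0.77 ± 0.18 (SE), which did not pass edgeR (adjusted p = 0.158) and passed DESeq2 (adjusted p = 0.00574). Hsp90ab1 (Entrez 15516, chromosome 17, 45567775 to 45573271) encodes HSP90 beta, the constitutive form. Its values were 4527, 4826 and 4555 CPM in vehicle 1, 2 and 3, against 4028, 3469 and 3189 CPM in TP-18 1, 2 and 3. The groups were again apart in TMM-scaled CPM but overlapped with library totals. Hsp90ab1 had a log2 fold change of -0.38 ± 0.13 (SE), and neither edgeR (adjusted p = 0.243) nor DESeq2 (adjusted p = 0.103) called it. With library totals it was -0.20.

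The ratio of the inducible to the constitutive HSP90 does not depend on library scaling. In deposited FPKM, Hsp90aa1 over Hsp90ab1 was 0.260, 0.261 and 0.293 in vehicle 1, 2 and 3, against 0.231, 0.173 and 0.214 in TP-18 1, 2 and 3. The mean ratio was 0.271 ± 0.0186 with vehicle against 0.206 ± 0.0299 with TP-18 (SD, n = 3 each), and the groups did not overlap. The ratio of the mitochondrial pair, Hspd1 over Hspe1, was 1.25, 0.864 and 1.15 with vehicle against 1.34, 1.32 and 1.62 with TP-18. These groups did not overlap either, with vehicle 1 and TP-18 2 the nearest values. No test was made of these ratios.

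**Figure D2:**
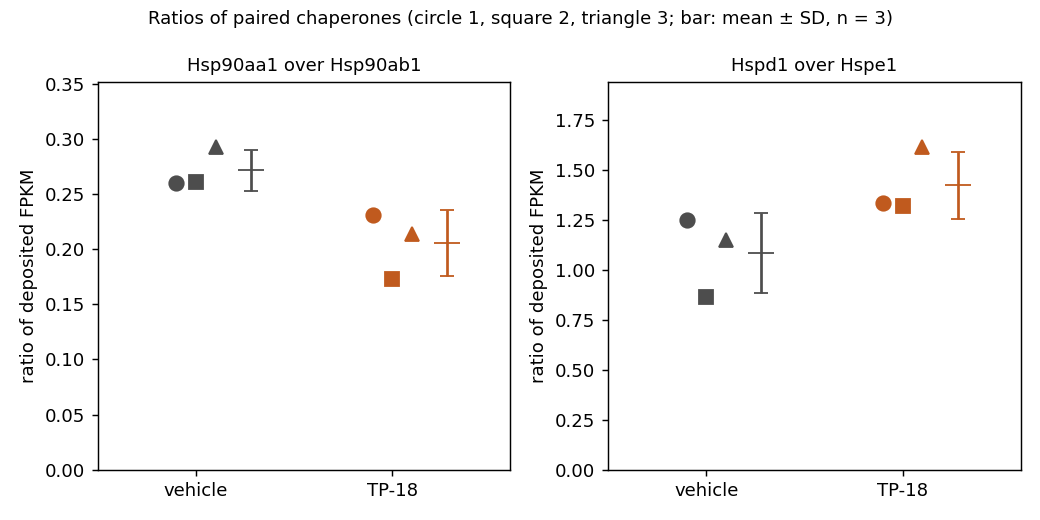
Ratios of deposited FPKM (vertical axes, each from 0) for Hsp90aa1 over Hsp90ab1 and Hspd1 over Hspe1, per library with the mean and SD. The first ratio is 0.260 to 0.293 in vehicle and 0.173 to 0.231 in TP-18 libraries, and the second is higher in all TP-18 than in all vehicle libraries.

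Among the HSP90 partners, Stip1 had the most negative log2 fold change. Stip1 (Entrez 20867, chromosome 19, 7020702 to 7039967) encodes HOP, the adaptor that bridges HSP70 and HSP90 during client transfer. It was at 283, 263 and 242 CPM in vehicle 1, 2 and 3, against 215, 163 and 195 CPM in TP-18 1, 2 and 3. Every TP-18 value was below every vehicle value, and the log2 fold change was -0.46 ± 0.15 (SE, edgeR adjusted p = 0.230, DESeq2 adjusted p = 0.0756). With library totals it was -0.28 and the groups overlapped. St13 (Entrez 70356, chromosome 15, 81363669 to 81400077) encodes HIP, which binds the ATPase domain of HSP70. It was at 276, 300.03 and 298 CPM with vehicle against 254, 269 and 215 CPM with TP-18. The gap between the groups was 6.13 CPM, and the log2 fold change of -0.24 ± 0.14 (SE) did not pass (edgeR adjusted p = 0.425). It was -0.16 without TP-18 3 and -0.06 with library totals, where the groups overlapped. Ahsa1 (Entrez 217737, chromosome 12, 87266479 to 87273998) encodes AHA1, which stimulates the ATPase of HSP90. It was at 129, 123 and 95.7 CPM in vehicle 1, 2 and 3, against 101, 84.2 and 106 CPM in TP-18 1, 2 and 3. Vehicle 3 lay below 2 of the TP-18 libraries, and the log2 fold change was -0.25 ± 0.16 (SE, edgeR adjusted p = 0.474). This became -0.16 without TP-18 2, -0.39 without vehicle 3 and -0.08 with library totals.

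The chaperonin genes Hspd1 and Hspe1 are neighbours that are read in opposite directions, and the run printed above lies in a promoter window of each. Hspe1 (Entrez 15528, chromosome 1, 55088132 to 55091307) encodes HSP10, the lid of the chamber. It was at 182, 265 and 171 CPM in vehicle 1, 2 and 3, against 145, 103 and 118 CPM in TP-18 1, 2 and 3. The groups were apart, with vehicle 2 well above the other vehicle libraries. Hspe1 had a log2 fold change of -0.76 ± 0.21 (SE, edgeR adjusted p = 0.198, DESeq2 adjusted p = 0.0270), and it was -0.55 without vehicle 2. Hspd1 (Entrez 15510, chromosome 1, 55077835 to 55088243) encodes HSP60, which forms the chamber. Its values were 768, 772 and 662 CPM in vehicle 1, 2 and 3, against 651, 459 and 640 CPM in TP-18 1, 2 and 3. Vehicle 3 and TP-18 1 were 10.9 CPM apart, and with library totals the groups overlapped. Hspd1 had a log2 fold change of -0.33 ± 0.17 (SE, edgeR adjusted p = 0.388), which was -0.18 without TP-18 2 and -0.16 with library totals. In GENCODE, exons of Hspd1 and Hspe1 share 112 bases on opposite strands, 4.24% of the exonic bases of Hspd1 and 7.60% of those of Hspe1. The annotation used for counting and the use of strand are not given in the sources used here. It is therefore not known whether the genes overlapped in the counting, or to which gene reads in that stretch went.

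Hspb1 and Bag3 act together in the handling of damaged and aggregated protein. Hspb1 (Entrez 15507, chromosome 5, 135887919 to 135889563) encodes HSP25, a small heat shock protein that holds unfolded proteins without ATP. It was the least abundant of the 10, with 41 to 231 reads per library. Its values were 14.2, 13.4 and 7.54 CPM in vehicle 1, 2 and 3, against 5.28, 5.43 and 2.24 CPM in TP-18 1, 2 and 3. The groups did not overlap, although vehicle 3 was nearer to TP-18 1 and TP-18 2 than to the other vehicle libraries. The log2 fold change of Hspb1 was -1.44 ± 0.40 (SE, edgeR adjusted p = 0.197, DESeq2 adjusted p = 0.0177), with both the most negative value and the largest SE of the 10 genes. Bag3 (Entrez 29810, chromosome 7, 128523616 to 128546981) encodes the co-chaperone that links HSP70 and small heat shock proteins to autophagy. It was at 228, 280.1 and 318 CPM in vehicle 1, 2 and 3, against 197, 171 and 127 CPM in TP-18 1, 2 and 3. The groups did not overlap, and vehicle 1 was the vehicle library closest to TP-18. Bag3 had a log2 fold change of -0.74 ± 0.20 (SE, edgeR adjusted p = 0.196, DESeq2 adjusted p = 0.0237).

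**Figure D3:**
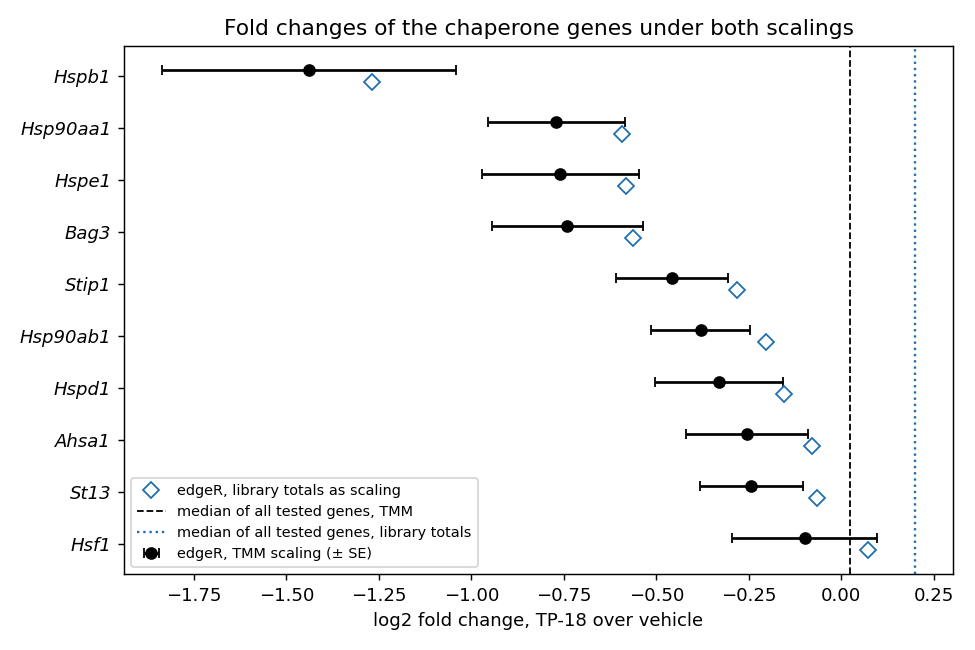
Log2 fold changes of TP-18 over vehicle (horizontal axis) for the 10 genes, with TMM scaling (black, bars are SE) and with library totals (blue diamonds); the vertical lines are the medians of all tested genes, 0.02 and 0.20. Hspb1, Hsp90aa1, Hspe1 and Bag3 are the most negative, from -1.44 to -0.74 with TMM, and Hsf1 crosses 0 between the scalings.

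Per length, the order of the genes by mean FPKM over the 6 libraries was Hsp90ab1 (1623), Hsp90aa1 (392), Hspd1 (253), Hspe1 (210.4), Stip1 (104), St13 (87.2), Bag3 (83.5), Ahsa1 (68.0), Hsf1 (16.6) and Hspb1 (8.65). Neighbours in this order overlapped in their range over libraries, except that all values of Hsp90ab1 were above those of Hsp90aa1, all of Hspe1 above those of Stip1, and all of Ahsa1 above those of Hsf1. In FPKM, which the authors scaled by library totals, Hsp90aa1 was at 471 ± 19.6 with vehicle against 312 ± 70.7 with TP-18, while Hsp90ab1 was at 1738 ± 60.9 and 1509 ± 170 (SD, n = 3 each).

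Within the TP-18 group the libraries were unequal. TP-18 1 had the highest value of its group in 7 of the 10 genes and the lowest in 0. TP-18 2 and TP-18 3 were each the lowest of all 6 libraries in 5 genes. TP-18 2 was lowest for Hsp90aa1, Hspd1, Hspe1, Stip1 and Ahsa1, and TP-18 3 for Hsf1, Hsp90ab1, Hspb1, Bag3 and St13. The mean over the 10 genes of log2 CPM minus the gene's own mean in vehicle 1, 2 and 3 stood at 0.32, 0.35 and 0.16, and that of TP-18 1, 2 and 3 at -0.07, -0.34 and -0.43.

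**Figure D4:**
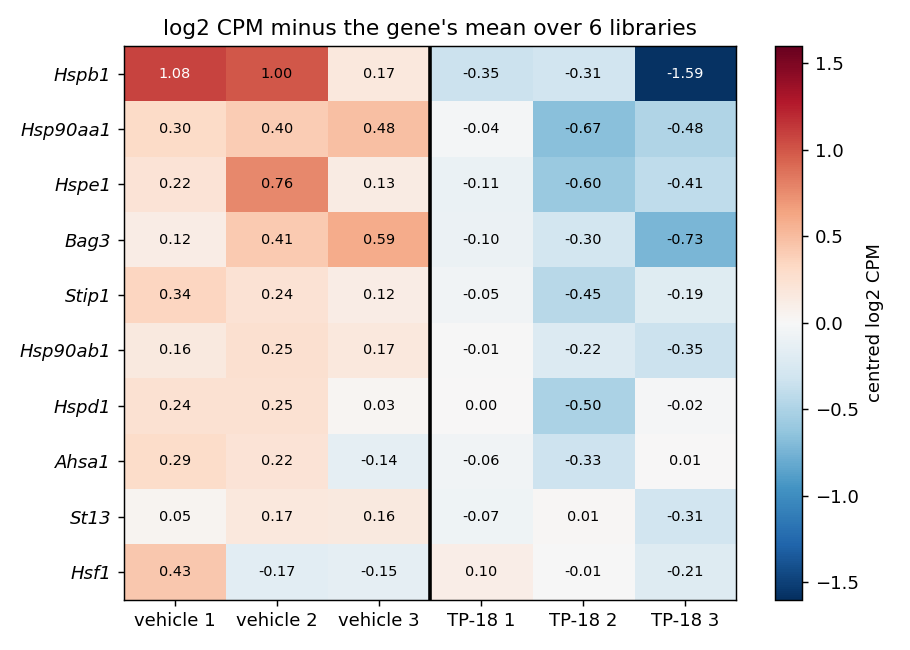
Log2 CPM minus the gene's mean over the 6 libraries (colour and printed value), genes in rows and libraries in columns, with vehicle left of the line. TP-18 1 is the highest TP-18 library for 7 of the 10 genes, and vehicle 1 stands highest for Hsf1.

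Hsp90ab1 followed this mean profile most closely among the 10, with a root mean square difference of 0.10 on the log2 scale over the 6 libraries, then Stip1 (0.12), while Hspb1 (0.63) and Hsf1 (0.31) departed most. Each of the 10 is part of this mean and other genes are not, so their differences are not directly comparable. Among other genes with a mean of at least 10 CPM, the 5 nearest to the mean profile were Tsc22d1 (0.059), 2410004B18Rik (0.065), Gtpbp6 (0.079), Nop56 (0.080) and Dusp18 (0.082). Tsc22d1 encodes a leucine zipper protein, Nop56 a core protein of box C/D ribonucleoproteins and Dusp18 a phosphatase. Their log2 fold changes ran from -0.59 for Dusp18 to -0.45 for Nop56, and none of the 5 passed edgeR. DESeq2 called 3 of them lower, against 2.98% of all tested genes: Tsc22d1 (adjusted p = 0.0218), Nop56 (0.0165) and Dusp18 (0.0297). The mean profile was higher in all vehicle libraries, so the negative direction of genes picked for likeness to it follows from that choice. The same choice favours calls as lower, so the 3 calls cannot be weighed against the share of all genes.

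Other genes that HSF1 induces on heat shock had mostly negative log2 fold changes. Of 20 tested, 18 had negative log2 fold changes under either scaling, 1 passed edgeR and was lower, 0 passed as higher, 13 were lower at an unadjusted p under 0.05, and DESeq2 called 9 lower. Their median log2 fold change was -0.52 with TMM and -0.35 with library totals. For this and the later lists, 47.4% of all tested genes were negative with TMM and 28.2% with library totals. At an unadjusted edgeR p under 0.05, 8.7% of all tested genes were lower and 7.56% higher. DESeq2 called 2.98% lower and 1.47% higher. The lists were chosen with earlier results of these data known, so these shares do not test them. The gene of the HSF1-induced list that passed edgeR was Hspa1b, an inducible HSP70, at 1014, 793 and 1034 CPM with vehicle against 364, 256 and 335 CPM with TP-18. Its log2 fold change was -1.57 ± 0.19 (SE, edgeR adjusted p = 0.0428), a call that ended with library totals (0.0651), in limma on FPKM (0.0644 and 0.0734), with the replicate number as a block (0.0502) and without any 1 of the 6 libraries (0.0808 to 0.221), and its reads are hard to separate from those of the near-identical Hspa1a. Hspa8, the constitutive cytosolic HSP70 and the most abundant of this list, was at 2888, 2951 and 2777 CPM with vehicle against 1815, 1461 and 1674 CPM with TP-18 (edgeR adjusted p = 0.0972, DESeq2 adjusted p = 4.12e-06). Ubb, a polyubiquitin gene, had a log2 fold change of -0.35 ± 0.17 (SE) and did not pass edgeR (adjusted p = 0.359).

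The remaining HSP90 paralogs and co-chaperones were divided in direction. Of 22 tested, 13 were negative with TMM and 7 with library totals, 0 passed edgeR, 3 were lower and 1 higher at an unadjusted p under 0.05, and DESeq2 called 1 lower. The median was -0.05, or 0.13 with library totals. Hsp90b1, the HSP90 of the endoplasmic reticulum, had 1153 ± 75.8 CPM with vehicle against 1077 ± 61.9 CPM with TP-18 (SD, n = 3 each). Fkbp5, a co-chaperone of steroid receptors, had 357 ± 68.0 and 427 ± 244 CPM, and Cdc37, which brings kinases to HSP90, had 190.1 ± 42.3 and 188 ± 31.0 CPM. The call of DESeq2 was Ahsa2, a paralog of Ahsa1, named here after its values were seen, at 54.4 ± 6.86 and 31.3 ± 1.59 CPM (edgeR adjusted p = 0.102, DESeq2 adjusted p = 0.000742).

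Of the other heat shock factors and their binding protein, 3 were tested, all 3 were negative under both scalings and 0 passed edgeR, with 1 lower at an unadjusted p under 0.05 and 0 called by DESeq2. Hsbp1, which binds trimers of HSF1, had 124 ± 8.63 CPM with vehicle against 94.7 ± 6.41 CPM with TP-18 (edgeR adjusted p = 0.226). Hsf2 had 24.6 ± 3.35 and 20.1 ± 0.607 CPM, and Hsf4 had a log2 fold change of -0.23. Of the other BAG proteins, 2 of 5 were negative, 0 passed edgeR and 1 was lower at an unadjusted p under 0.05, with Bag6 at a log2 fold change of 0.11, Bag1 at -0.21 and Bag5 at -0.37. Of the other small heat shock proteins, 5 of 9 passed the filter, 4 of these were negative with TMM and 3 with library totals, and 0 passed edgeR. Cryab, alpha B crystallin, was at 106, 146 and 65.0 CPM with vehicle against 51.6, 57.8 and 23.2 CPM with TP-18, with groups that did not overlap in TMM-scaled CPM (log2 fold change -1.26 ± 0.39 SE, edgeR adjusted p = 0.219, DESeq2 adjusted p = 0.0254). Hspb8, a partner of BAG3, had a log2 fold change of -0.51 and Hspb7 one of -0.09.

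Subunits of the cytosolic chaperonin CCT and of prefoldin, which fold actin and tubulin, lay in a narrow band. All 14 were negative with TMM, from -0.26 to -0.01, but 9 were with library totals, and 0 passed edgeR or had an unadjusted p under 0.05. Cct2 had a log2 fold change of -0.26, Tcp1 -0.20 and Cct7 -0.11. Other mitochondrial chaperones and proteases were divided, with 7 of 12 negative with TMM, 3 with library totals and 0 past edgeR or an unadjusted p under 0.05. Hspa9, the mitochondrial HSP70 that hands proteins to HSP60, had 843 ± 89.1 CPM with vehicle against 853 ± 108 CPM with TP-18, a log2 fold change of 0.02 ± 0.15 (SE). The proteases Lonp1 and Yme1l1 had log2 fold changes of 0.13 and -0.05.

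**Figure D5:**
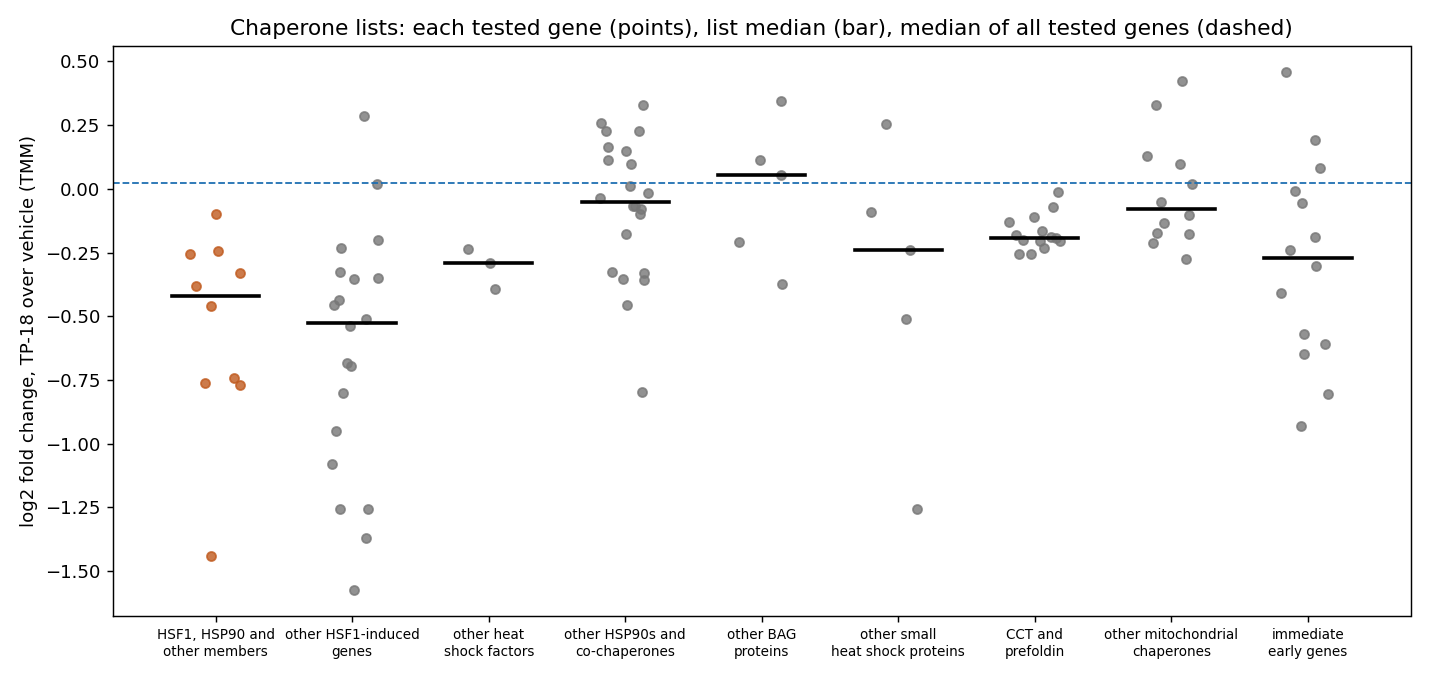
Log2 fold change with TMM scaling (vertical axis) of each tested gene in the chaperone lists and in immediate early genes, with the list median (bar) and the median of all tested genes (dashed, 0.02). The 10 members (orange) have a median of -0.42 and the other HSF1-induced genes -0.52, and the other HSP90 co-chaperones have a median of -0.05.

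Levels of other programs and cell types are given because some differed between the groups. Of 14 immediate early genes, which dissociation of tissue can induce together with heat shock genes, 11 were negative with TMM and 9 with library totals, 0 passed edgeR, and 4 were lower and 1 higher at an unadjusted p under 0.05. DESeq2 called Jund (adjusted p = 0.00276) and Btg2 (0.00985) lower and Egr1 (0.0499) higher, the first 2 of these named after their values were seen. Their log2 fold changes in edgeR were -0.65, -0.81 and 0.46. The summed level of the 14 was 11361 to 12978 CPM in vehicle and 9876 to 11914 CPM in TP-18 libraries, which overlap, and the median was -0.27, or -0.09 with library totals and -0.52 without TP-18 3. The most abundant were Fosb, at 2558 ± 73.8 and 2460 ± 640.3 CPM, Egr1, at 1584 ± 87.3 and 2177 ± 231 CPM, and Jun, at 1507 ± 241 and 1135 ± 188 CPM. Of 12 macrophage markers 8 were negative with TMM and 7 with library totals, 0 passed edgeR and DESeq2 called 1 lower. The sum of these macrophage markers was 5434 to 9195 CPM in vehicle and 4935 to 7399 CPM in TP-18 libraries. Of 12 fibroblast and pericyte markers 11 were positive, 0 passed edgeR and DESeq2 called 4 higher, with sums of 754 to 1217 CPM in vehicle and 1515 to 1888 CPM in TP-18 libraries, which do not overlap. Mast cell markers summed to 3.31 to 5.78 and 10.7 to 34.0 CPM, which do not overlap either, with 5 of 5 tested positive and 3 called higher by DESeq2. Epithelial carcinoma markers summed to 499 to 708 and 295 to 570.3 CPM, with 4 of 6 tested negative with TMM and 3 with library totals. Their log2 fold changes ran from -1.74 to 1.26, with 1 lower and 1 higher at an unadjusted edgeR p under 0.05. The 1 past edgeR was Sox9, named after its values were seen, at 150 ± 16.2 and 44.9 ± 3.07 CPM (adjusted p = 0.0137). The edgeR call of Sox9 ended with the replicate number as a block (0.0502), without vehicle 2 (0.0562), without vehicle 3 (0.0971) and without TP-18 1, 2 or 3 (0.190, 0.142 or 0.0801), and held without vehicle 1 (0.0315). Sums were 35.6 to 193 and 107 to 192 CPM for 10 endothelial markers, all positive with 1 called higher by DESeq2. They were 56.1 to 229.8 and 61.2 to 135 CPM for neutrophil markers, with 2 of 6 tested negative. Dendritic cell markers summed to 104 to 158 and 100.4 to 114 CPM. All 4 tested were negative (median log2 fold change -0.82), and DESeq2 called 1 lower. Lymphocyte markers summed to 3.59 to 13.3 and 4.23 to 13.4 CPM. Of 5 tested, 3 were negative with TMM and 1 with library totals, and 1 was higher at an unadjusted edgeR p under 0.05. Muscle, skin and fat markers summed to 45.5 to 76.8 and 11.7 to 56.4 CPM. All 5 tested were negative with TMM (median -1.34) and 4 with library totals, and DESeq2 called 0. No marker measured here had 0 counts in all 6 libraries. The part of these cells and programs in the chaperone values was not tested.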

How the data were processed

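The authors deposited raw counts per gene and FPKM values, 1 column per library. The tools named are fastp, HISAT2 and HTSeq, and the build GRCm38, per the submitters' processing notes. Their versions, the annotation and the strand setting are not given in the sources used here. Deposited FPKM equal count over library total and 1 length per gene, checked on 16135 genes. Groups and replicate numbers came from the labels. The test of the counts was that of edgeR 4.0.16 (R 4.3.3): filterByExpr (minimum count 10, minimum total 15), TMM scaling, quasi-likelihood test of TP-18 against vehicle without covariates, Benjamini-Hochberg adjustment over 12721 genes, threshold 0.05. SE is the absolute log2 fold change over the square root of F. CPM use TMM-scaled library sizes unless stated. The script was tested on simulated data first. Alternatives were RLE scaling, library totals, other filters, DESeq2 1.42.0, limma 3.58.1 on log2(FPKM + 1) and log2(FPKM + 0.1), a replicate block and each library left out. Libraries of a group differed by more than sampling noise (chi-square per degree of freedom 27.8 to 81.4), so none was counted as a copy.

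The members and lists were chosen with earlier results of these data known. Named genes were the 10 members, list genes past the threshold, the 3 most abundant of each pathway list and the 5 nearest in profile; the rule also took the 2 most abundant of each marker list, of which only summed levels and counts are printed here, apart from Sox9. A gene that the rule named is not reported here. Chordc1, Fkbp4, Ptges3, Tcp1, Cryab, Hspb8 and Trap1 each stand on more than 1 list. Coordinates are from GENCODE M21 (GRCm38), matched by Entrez identifier, and promoters from RefSeq on GRCm38.p6. Transcript copies with at least 95% identity over 200 bases, by BLAST 2.17.0, were annotated for Hsp90aa1 (3), Hspb1 (2), Hspd1, Hspe1 and Ahsa1 (1 each) and were not analysed here; how reads that fit several places were counted is not given, so these genes' counts are uncertain to that extent. Figures used matplotlib 3.10.9.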

Additional observations from a re-analysis of the deposited data

How the results depend on the processing

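The chaperone genes kept the sign of their log2 fold change under all 14 alternatives except Hsf1, which was 0.074 with library totals, 0.094 and 0.10 with limma on log2(FPKM + 1) and log2(FPKM + 0.1), and -0.22 to 0.10 with 1 library left out. Of the 10, edgeR and limma passed 0 under every alternative, and DESeq2 passed 4. The count with groups apart was 4 with library totals and 4 in FPKM, which carry library totals as scaling. The median of the 10 was -0.24 with library totals and -0.25 with either limma fit, against -0.42. Over all genes, 3 were called higher and 11 lower. These became 187 and 379 with DESeq2, 7 and 20 without a low-count filter, 1 and 1 with either limma fit, 3 and 1 with library totals, 0 to 3 and 0 to 5 with 1 library left out, and 3 and 0 with the replicate block. Medians with library totals, limma on log2(FPKM + 1) and limma on log2(FPKM + 0.1) were -0.11, -0.075 and -0.10 for heat shock factors, 0.13, 0.11 and 0.13 for HSP90 co-chaperones, -0.35, -0.34 and -0.35 for HSF1-induced genes, 0.24, 0.19 and 0.23 for BAG proteins, -0.015, -0.0099 and -0.0099 for CCT and prefoldin, and 0.10, 0.10 and 0.10 for mitochondrial chaperones. With 1 library left out, the BAG median was -0.050 to 0.079 and that of immediate early genes -0.52 to -0.18. In the same 3 fits, signs turned for Hsp90b1 (0.078, 0.079 and 0.079), Cdc37 (0.16, 0.17 and 0.17), Hspb7 (0.081, 0.084 and 0.098), Cct7 (0.067, 0.080 and 0.080), Yme1l1 (0.13, 0.12 and 0.12) and Fosb (0.12, 0.088 and 0.088). With 1 library left out, ranges that crossed 0 were -0.036 to 0.67 for Fkbp5, -0.20 to 0.11 for Cdc37, -0.38 to 0.17 for Hspb7, -0.077 to 0.11 for Hspa9, -0.12 to 0.30 for Lonp1 and -0.26 to 0.12 for Fosb. None of these passed edgeR. For changes other than by scaling, the cause was not tested.

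Pairing of libraries by equal replicate number was not resolved. Deviations from the group means correlated at 0.23, 0.39 and -0.15 for numbers 1, 2 and 3, and at -0.63 to 0.51 for unlike numbers. With 3 libraries per group such values cannot exclude pairing. With the replicate block 0 of the 10 passed and their median was -0.43. Depth limits Hspb1 most, at 41 reads in TP-18 3.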
